A study of Mus musculus with 2 samples.

Results

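Wnt signalling in mouse Achilles tendon after injury was followed through 10 genes: the secreted Frizzled-related decoys Sfrp1, Sfrp2, Sfrp4 and Frzb, the Wnt-binding inhibitor Wif1, the Dickkopf genes Dkk2 and Dkk3, the ligands Wnt5a and Wnt2, and the target gene Axin2. They are a list of named genes, looked up by symbol among the 32285 genes of each library, and all 10 were found once. Their level in a cell class was its summed unique molecular identifiers (UMIs, 1 per captured transcript) per 1000000 UMIs of that class (CPM).

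The data were 2 droplet single-cell libraries of the soft tissue behind the tibia, one of an injured tendon and one of a contralateral uninjured tendon. Both libraries come from mice that carry CreERT2 at Hoxa11 (wt/CreERT2), LSL-rtTA at R26 (wt/LSL-rtTA) and a TetO-Vegfd transgene. A tamoxifen-dependent Cre made where Hoxa11 is active lets rtTA be made, and rtTA, when its own inducer is present, drives Vegfd. No library without these alleles was analysed here, so the values hold for Vegfd-overexpressing mice. Both are labelled burn/tenotomy, a model in which a skin burn is combined with cutting of the Achilles tendon, and the injured tendon was taken at day 7 after tenotomy. Mice were male and female and 8 to 12 weeks old, with 5 per group in the design text, and the number of animals pooled in each library was not stated. With 1 library per group there is no test and no replicate check: intervals are exact 95% limits that cover counting error only, and differences are between these 2 libraries.

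Wnt proteins bind Frizzled receptors. In the canonical branch, with the co-receptors Lrp5 and Lrp6, this keeps beta-catenin from being destroyed, so that it acts with TCF/LEF factors on target genes. In the non-canonical branch, for which Wnt5a is the best known ligand, Ror and Ryk receptors convey the signal without beta-catenin. Secreted modulators act outside the cell: SFRP proteins and Wif1 bind the ligands themselves, whereas Dickkopf proteins such as Dkk2 bind the co-receptors.

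After filtering, 9151 injured and 4700 uninjured cells were kept, at a median of 17492 and 15771.5 UMIs, and 26.8% of the injured and 28.8% of the uninjured cells were classed as mesenchymal. These 2449 injured and 1352 uninjured mesenchymal cells had medians of 44015 and 19180.5 UMIs, all 8 fibroblast markers were at 10 CPM or more in both, and the markers summed to 43155 and 38214 CPM. Summed macrophage markers came to 116 CPM in injured and 19.3 CPM in uninjured mesenchymal cells, neutrophil markers to 115 and 26.0 CPM, and Schwann markers to 28.3 and 64.1 CPM. Their part in the results below was not tested. Vegfd was at 95.2 CPM over all injured and 23.5 CPM over all uninjured cells. The libraries shared 19 cell barcodes.

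Upstream sequences are shown for 3 members on which the results turn: Sfrp2, much higher in injured mesenchymal cells, Dkk2, which differed in direction between cell types, and Axin2, the canonical target. Each is the 250 bases before the gene's start, 5′ to 3′ on the gene's strand, from RefSeq on GRCm38.p6, at chr3:83766071-83766320, chr3:132085042-132085291 and chr11:108920099-108920348, all on the plus strand. Capitals mark GC boxes and the TATA box.
Sfrp2: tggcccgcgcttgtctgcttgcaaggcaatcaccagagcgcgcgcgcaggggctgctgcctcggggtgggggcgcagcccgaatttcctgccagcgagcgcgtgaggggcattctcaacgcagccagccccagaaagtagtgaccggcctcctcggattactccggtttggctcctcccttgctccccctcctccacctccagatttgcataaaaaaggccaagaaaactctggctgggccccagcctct
Dkk2: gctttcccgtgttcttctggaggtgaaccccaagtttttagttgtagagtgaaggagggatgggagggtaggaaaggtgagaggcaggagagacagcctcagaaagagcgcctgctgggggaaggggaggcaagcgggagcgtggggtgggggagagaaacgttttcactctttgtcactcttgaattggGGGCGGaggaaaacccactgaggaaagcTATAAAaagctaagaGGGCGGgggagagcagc
Axin2: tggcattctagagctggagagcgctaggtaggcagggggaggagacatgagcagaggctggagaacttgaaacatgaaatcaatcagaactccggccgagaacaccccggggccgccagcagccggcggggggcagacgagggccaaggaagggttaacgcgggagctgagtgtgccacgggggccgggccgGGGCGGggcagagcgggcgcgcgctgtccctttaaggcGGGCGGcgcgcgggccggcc
The Sfrp2 window was 63.6% G or C with 16 CpG, Dkk2 55.6% with 7 and Axin2 69.2% with 24, against medians of 52.4% and 6 over all promoters of the same length. The GC box, GGGCGG on either strand, stood at bases -60 and -17 of Dkk2 and -58 and -20 of Axin2, and in 32.7% of 32851 promoters. The TATA box, TATAAA on the gene strand, was found at base -32 of Dkk2, and in 7.59% of promoters. CTTTGA, the only form of the TCF/LEF core searched, was sought on both strands and was in 13.8% of promoters. It was not found in these 3 windows. Among the 6 members with a sequence (Frzb, Wif1 and Wnt2 besides these) Frzb had it at base -95. Other forms of the core and sequence outside the 250 bases were not searched, so the absence of TCF/LEF sites cannot be read from these windows. An AP-1 site, TGANTCA, was in 6.75% of promoters and in none of the 6. The motifs do not overlap one another in the printed windows.

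Sfrp1 and Sfrp2 were the members that differed most in mesenchymal cells, both higher in the injured library, and Dkk3 was higher too. Wif1 was lower. Sfrp4, Dkk2, Wnt5a and Wnt2 lay within 2-fold, and Frzb and Axin2 stayed under 10 CPM in both libraries, the level set for a comparison. Of the 8 members compared, 3 were more than 2-fold higher, against 4.24% of the 9480 genes compared, and 1 was more than 2-fold lower, against 6.78%. The median log2 ratio was -0.02 over the 8 members and -0.05 over all genes, where every log2 ratio is of CPM plus 5, injured over uninjured.

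**Figure D1:**
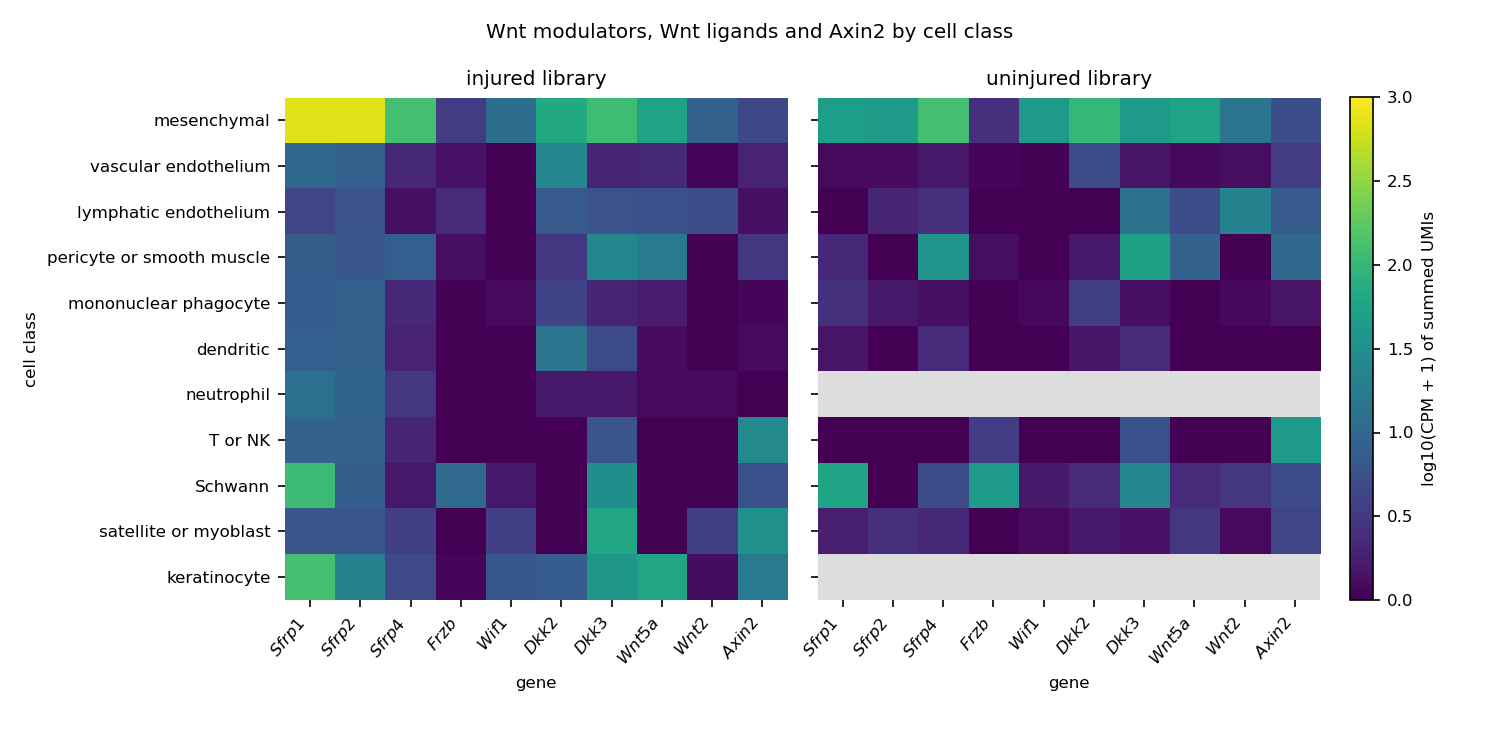
Level of the 10 genes in each cell class, injured library left and uninjured library right, as log10(CPM + 1) of summed UMIs; grey marks a class with fewer than 20 cells in that library. The mesenchymal row is brightest for Sfrp1 and Sfrp2 in the injured library (727 and 732 CPM).

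Over all kept cells, 7 members were compared, 3 were higher (5.04% of genes) and none lower (6.57%). Sfrp1 was at 349 CPM in all injured and 16.1 CPM in all uninjured cells, Sfrp2 at 345 and 14.4 CPM and Dkk3 at 57.5 and 16.5 CPM. Wif1, at 5.42 and 12.8 CPM, stayed within 2-fold there.

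Sfrp1, a secreted decoy that binds Wnt ligands through a Frizzled-like domain, was at 727 CPM (80933 UMIs) in injured and 46.2 CPM (1310 UMIs) in uninjured mesenchymal cells. That is 15.7-fold higher (14.9 to 16.6) and a log2 ratio of 3.84. A UMI of Sfrp1 was found in 83.0% of injured (81.5 to 84.5) and 24.2% of uninjured mesenchymal cells (21.9 to 26.6). Thinned to 3000 UMIs per cell, which kept 2330 injured and 1279 uninjured cells, the shares were 58.0% and 10.3%. Mononuclear phagocytes, which should lack the gene, gave 8.98% in the injured and 0.943% in the uninjured library at median depths of 13781 and 14941 UMIs, and 1.65% and 0.243% thinned. The mesenchymal shares lie above that background in both libraries.

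The second decoy, Sfrp2, was at 732 CPM (81475 UMIs) in injured and 44.1 CPM (1251 UMIs) in uninjured mesenchymal cells, 16.6-fold higher (15.7 to 17.6, log2 ratio 3.91). It was found in 75.9% of injured and 9.91% of uninjured mesenchymal cells, or 45.8% and 5.08% thinned. Phagocytes gave 10.1% and 0.708%, or 2.63% and 0.243% thinned. Sfrp2 (chr3:83766321-83774316, plus strand, on mm10) overlaps the annotated gene Gm26771 on the opposite strand, and the sources used here do not give whether counting used strand, so reads of the pair may be mixed. The same holds for Wnt5a with Gm2670 and Axin2 with Gm11670.

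Per cell, the Sfrp1 median was 360 CPM in injured and 0 in uninjured mesenchymal cells, and 24.6% and 0.592% of cells exceeded 1000 CPM. For Sfrp2 the cell medians were 155 and 0 CPM, and the 10% of cells with most Sfrp2 held 59.97% of its UMIs among injured cells. Among uninjured cells that share was 100%, necessarily so, as fewer than 10% of them had any Sfrp2 UMI. For Sfrp1 the same shares were 45.3% and 80.2%. At unequal depth, both decoys were thus spread over a larger share of injured than of uninjured cells, and Sfrp2 was held by few uninjured ones. The 2 decoys were also found in the same cells: in thinned cells, Sfrp2 was present in 58.8% of the injured cells with Sfrp1 and 27.9% of those without it. In uninjured cells the same shares were 11.4% and 4.36%. These shares follow cluster makeup as well and are given as a description.

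Sfrp4, the third decoy, known for its role in bone, was at 125 CPM (13946 UMIs) in injured and 127 CPM (3611 UMIs) in uninjured mesenchymal cells, a ratio of 0.984 (0.949 to 1.02). It was found in 43.5% and 30.2% of cells, or 18.9% and 15.2% thinned. Frzb, the decoy also called Sfrp3 and known from cartilage, had 258 and 46 UMIs, or 2.32 and 1.62 CPM, and was found in 0.601% and 0.0782% of thinned cells. In the SFRP family the wide difference therefore lay in Sfrp1 and Sfrp2 alone among the 4 members described here.

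Dkk3, a Dickkopf family member whose binding to the co-receptors is disputed, was at 115 CPM (12852 UMIs) in injured and 41.8 CPM (1185 UMIs) in uninjured mesenchymal cells. It was 2.76-fold higher (2.60 to 2.94, log2 ratio 1.37), and found in 77.5% and 35.3% of cells, or 26.3% and 11.1% thinned. Dkk2, which binds Lrp5 and Lrp6, was at 64.6 CPM (7192 UMIs) and 97.3 CPM (2761 UMIs), a ratio of 0.664 (0.635 to 0.694). Its share was 39.4% in injured and 20.3% in uninjured cells, but 12.1% and 12.2% thinned to equal depth.

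Wif1, which binds Wnt ligands through its own WIF domain, was at 10.995 CPM (1224 UMIs) in injured and 39.8 CPM (1129 UMIs) in uninjured mesenchymal cells. That is 3.62-fold lower, with a ratio of 0.276 (0.255 to 0.300) and a log2 ratio of -1.49. It was a gene of few cells, found in 4.94% and 7.03% of them, or 2.15% and 3.21% thinned. Small clusters held most of its UMIs in both libraries, as described further on.

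Wnt5a was alike in level, with 52.8 CPM (5873 UMIs) in injured and 53.6 CPM (1520 UMIs) in uninjured mesenchymal cells, a ratio of 0.985 (0.931 to 1.04). It was found in 56.3% and 48.1% of cells, or 12.9% and 13.3% thinned. Wnt2, a canonical ligand, was at 7.22 CPM (804 UMIs) and 13.4 CPM (379 UMIs), a ratio of 0.541 (0.478 to 0.613) that stayed within 2-fold on the scale with 5 CPM added (log2 ratio -0.59). Axin2, a scaffold of the beta-catenin destruction complex that beta-catenin itself induces, was at 3.52 CPM (392 UMIs) and 4.30 CPM (122 UMIs), and found in 1.20% and 1.33% of thinned cells. At this depth no difference in Axin2 was detectable: the ratio of 0.819 has limits of 0.667 and 1.01. In phagocytes of either library each of Sfrp4, Frzb, Wif1, Dkk2, Dkk3, Wnt5a, Wnt2 and Axin2 was found in at most 2.59% of cells, the highest being Dkk2 at 2.05% of injured and 2.59% of uninjured ones, or 0.668% and 0.243% thinned.

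Mesenchymal cells fell into 19 clusters, named by marker lists, and the 2 libraries sat mostly in different ones. Mature tenocyte-like cells were cluster 9 in the injured library (237 of 260 cells) and cluster 3 in the uninjured library (313 of 363 cells), with 9 and 48 cells in cluster 16. The tenocyte score was 0.78 in cluster 9 and 2.31 in cluster 3, and in the grouping of all cells 235 of the 237 injured cells of cluster 9 fell in a cluster that the repair fibroblast list named. The injured over uninjured ratios in tenocyte-like cells rest on the first naming. Progenitor fibroblast-like cells were cluster 4 (316 of 334 injured cells) and cluster 0 (341 of 342 uninjured cells). CXCL14 fibroblast-like cells were cluster 5 (282 of 310 injured cells) and clusters 6, 10 and 13 (247, 195 and 99 of 542 uninjured cells). The CXCL14 fibroblast score was 0.52 in cluster 5 and 0.80, 0.86 and 0.92 in clusters 6, 10 and 13. Cxcl14 itself was among the leading genes of the progenitor cluster 4 and not of cluster 5. The ratios in CXCL14 fibroblast-like cells rest on this naming. Repair fibroblast-like cells numbered 492 and 12, and CXCL5 inflammatory fibroblast-like cells 338 and 0. Clusters that no list named held 677 of the injured (27.6%) and 14 of the uninjured mesenchymal cells (1.04%). Of these unnamed clusters, cluster 14 (89 injured cells) was led by Cd74, S100a9 and Lyz2 and cluster 18 (22 injured cells) by endothelial genes. Without all unnamed clusters the mesenchymal log2 ratio was 3.69 for Sfrp1, 3.39 for Sfrp2, 1.35 for Dkk3 and -2.17 for Wif1. The 10 members and 76 other Wnt pathway genes, listed further on, were left out of the genes used for clustering. Levels by cluster are a description.

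**Figure D2:**
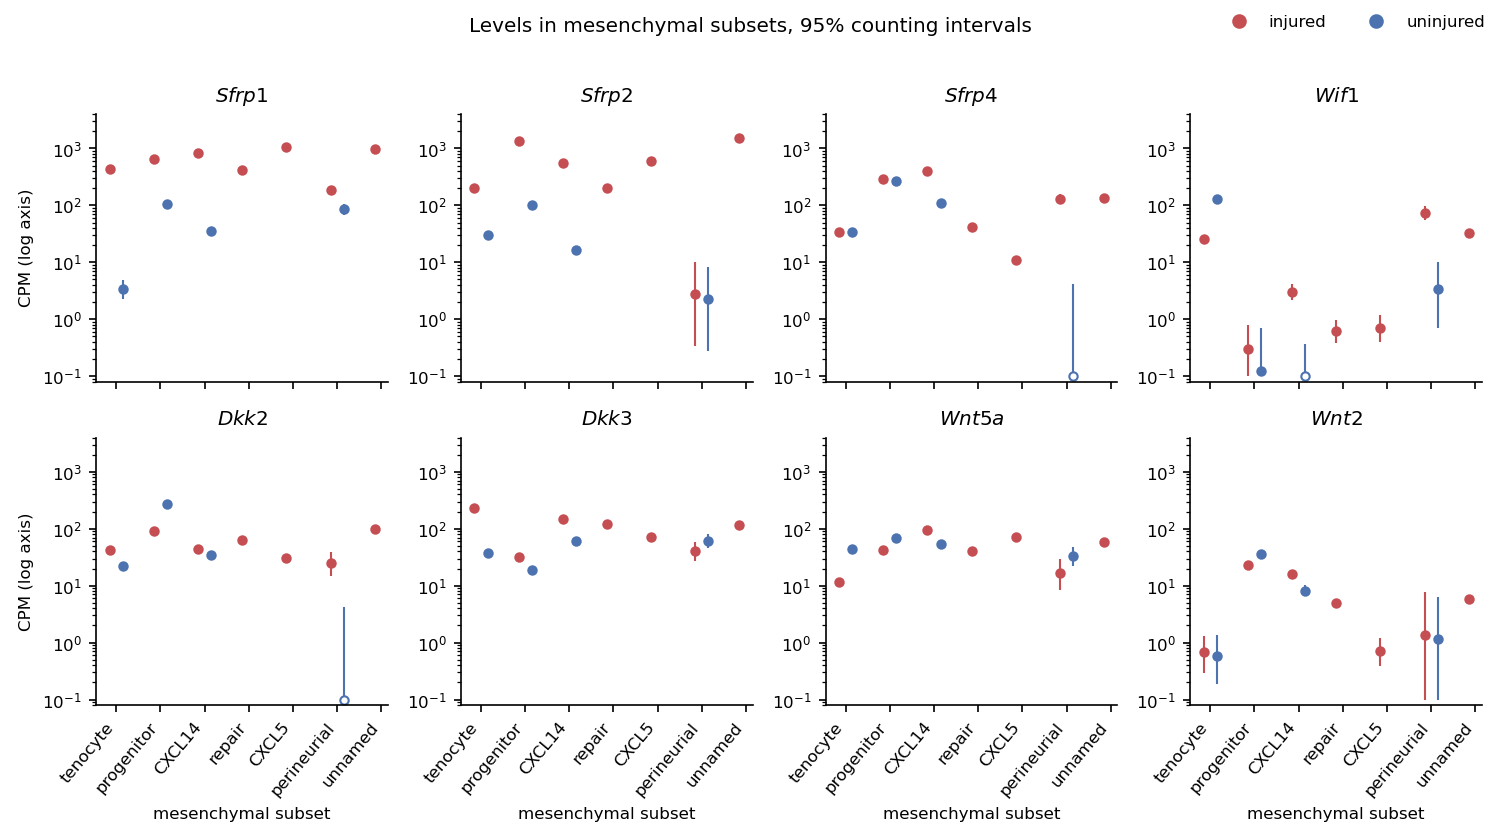
CPM of 8 members (log axis, one panel each) in mesenchymal subsets of 20 or more cells, injured left and uninjured right within each subset, with exact 95% counting intervals; open points are counts of 0, drawn at 0.1 CPM. Sfrp1 and Sfrp2 lie higher in the injured library in the tenocyte, progenitor and CXCL14 subsets, while Dkk2 lies lower in the progenitor subset (92.0 against 276 CPM).

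In tenocyte-like cells, which make the tendon's collagen, 7 members were compared: 3 were more than 2-fold higher (6.12% of genes were) and 2 more than 2-fold lower (11.3% were). Sfrp1 was at 443 CPM (5254 UMIs) in injured and 3.36 CPM (29 UMIs) in uninjured cells, a log2 ratio of 5.74. Sfrp2 was at 205 and 30.2 CPM (2.57) and Dkk3 at 229 and 37.4 CPM (2.46). In cells with Y-linked UMIs but without Xist, Sfrp2 was within 2-fold here (log2 ratio 0.82). Sfrp1 reached 460 CPM (5222 UMIs) in the 237 injured cells of cluster 9 and was near 0 in the uninjured cluster 3, with 3 UMIs in 313 cells. The 14 injured cells that did fall in cluster 3 held 1 UMI of Sfrp1.

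The members that were lower in injured tenocyte-like cells were Wif1, at 26.0 and 129 CPM (log2 ratio -2.11), and Wnt5a, at 11.4 CPM (135 UMIs) and 44.3 CPM (382 UMIs; -1.59). Wnt5a was thus past 2-fold here and within it over all mesenchymal cells. Dkk2 was at 43.1 and 22.5 CPM, and found in 49.6% of injured and 7.44% of uninjured tenocyte-like cells (12.5% and 2.80% thinned). Sfrp4 was at 34.0 and 34.1 CPM, but cluster 16 held much of it in both libraries: clusters 9 and 3 alone had 16.2 and 0.675 CPM. Its tenocyte-like log2 ratio of -0.00 depended on which cells were included: it ran between -2.51 and 2.60 over 11 other settings.

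In progenitor fibroblast-like cells, the Pi16 and Dpp4 fibroblasts of loose connective tissue, 7 members were compared, and 2 were higher (3.65% of genes) and 1 lower (3.68%). Sfrp2 was at 1362 CPM (17901 UMIs) in injured and 103 CPM (820 UMIs) in uninjured cells, and Sfrp1 at 665 and 104 CPM (log2 ratios 3.66 and 2.61). Dkk2 was at 92.0 CPM (1210 UMIs) and 276 CPM (2198 UMIs), 3.0-fold lower, and found in 14.8% and 34.2% of thinned cells. These cells held 14.4% of all Dkk2 UMIs of the injured library and 75.1% of those of the uninjured one. Wnt2 was at 22.7 CPM (298 UMIs) in injured and 35.6 CPM (283 UMIs) in uninjured progenitor fibroblast-like cells, which held 36.1% and 65.5% of the libraries' Wnt2 UMIs.

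In CXCL14 fibroblast-like cells 7 members were compared, 4 were higher (3.37% of genes) and none lower (3.98%). Sfrp1 was at 833 and 35.6 CPM (log2 ratio 4.37), Sfrp2 at 562 and 16.5 CPM (4.72), and Dkk3 at 150 and 60.4 CPM (1.24). Sfrp4 was higher here too, at 409 CPM (4812 UMIs) in injured and 112 CPM (1140 UMIs) in uninjured cells (1.83). Sfrp4 is itself among the leading genes of cluster 5, which holds most of the injured cells, although Sfrp4 was left out of the genes used for clustering. Wnt5a was at 95.4 and 54.2 CPM (0.76) and Wnt2 at 16.3 and 8.14 CPM (0.70), both within 2-fold. Wif1 had 36 UMIs in injured and 0 in uninjured cells, for which a count of 0 allows up to 0.294 CPM.

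Subsets seen almost only in the injured library carried both decoys as well. CXCL5 inflammatory fibroblast-like cells had 1059 CPM of Sfrp1 and 593 CPM of Sfrp2 but 11.1 CPM of Sfrp4. By sex-linked UMIs these were 239 Y-linked and 27 Xist cells, with Sfrp1 at 1203 and 244 CPM and Sfrp2 at 649 and 279 CPM. Repair fibroblast-like cells, which make Cthrc1 and tenascin C, had 424 CPM of Sfrp1, 203 CPM of Sfrp2 and 121 CPM of Dkk3. Of these 492 cells, 239 were cluster 8, led by cell-cycle genes such as Top2a with a repair score of only 0.32, and 228 of them fell in a cluster named CXCL5 inflammatory fibroblast in the grouping of all cells. Sfrp2 was highest in unnamed clusters: cluster 1 (342 cells, led by Ptn, Sfrp2 and Igf1) had 1891 CPM of Sfrp2 and 1001 CPM of Sfrp1. Cluster 15 (61 cells, led by Slpi, Pdzrn4 and Ptx3) had 1853 CPM of Sfrp2 and the highest Sfrp1, at 1814 CPM, and its median cell had 1811 CPM of Sfrp1 with a 10th percentile of 776 CPM. Of the injured library's Sfrp2 UMIs, 32.5% came from cluster 1.

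**Figure D3:**
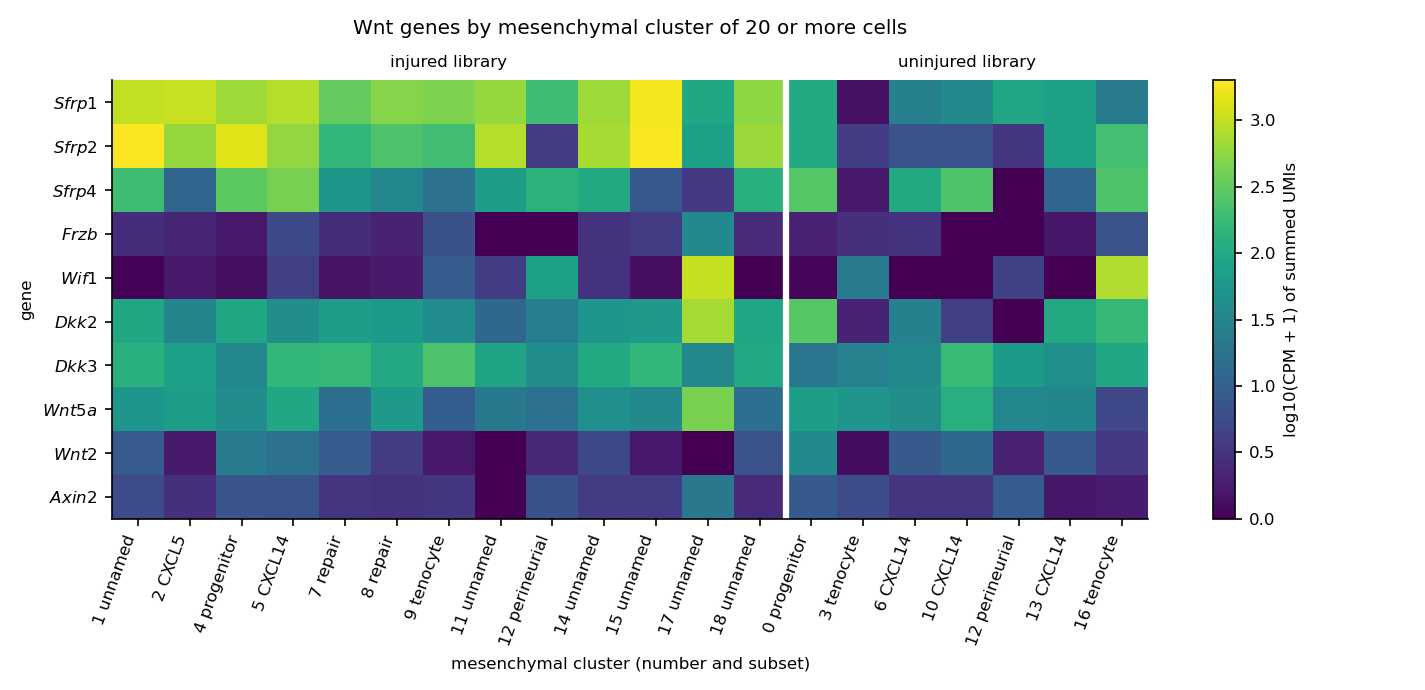
Level of the 10 genes (rows) in each mesenchymal cluster of 20 or more cells (columns, numbered, with subset), injured library left of the white line and uninjured right, as log10(CPM + 1). Sfrp1 and Sfrp2 are bright across most injured clusters, whereas Wif1 is brightest in injured cluster 17 (1017 CPM) and uninjured cluster 16 (808 CPM).

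Cells of both libraries that grouped together gave smaller Sfrp1 differences. A fibroblast cluster of the grouping of all cells, here called the shared fibroblast cluster, held 100 injured and 939 uninjured cells. There Sfrp1 was at 63.1 CPM (121 UMIs) and 62.6 CPM (1155 UMIs), a ratio of 1.01 (0.829 to 1.22). Sfrp2 was at 193 CPM (370 UMIs) and 56.3 CPM (1038 UMIs), a log2 ratio of 1.69, and Wnt2 at 54.8 and 20.01 CPM (1.26). Dkk2 was lower, at 53.2 and 138 CPM (-1.30). Of 8 members compared, 3 were higher (2.03% of 9294 genes) and 1 lower (1.36%). The third was Wif1, at 17.2 and 0.108 CPM (33 and 2 UMIs). The makeup of the cluster differed: 22 of the 100 injured cells were perineurial-like, as were 57 of the 939 uninjured ones, and 16 of the injured cells were of progenitor cluster 0, against 336 of the uninjured. These members were left out of the genes used to group the cells, and the near-equal Sfrp1 value is a description.

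Wif1 stood in a few cells of each library. One was the tenocyte-like cluster 16, led by Angptl7, Chad and Clu, which made up 0.367% of injured and 3.55% of uninjured mesenchymal cells. Its 9 injured cells had 969 CPM of Wif1 (214 UMIs), and its 48 uninjured cells had 808 CPM (954 UMIs), which was 84.2% of the uninjured library's Wif1. Wif1 was thus at close levels in these cells of both libraries, and without the cluster its mesenchymal log2 ratio was 0.30. In the injured library, 59.97% of Wif1 UMIs came from the 43 cells of cluster 17, led by Robo2, Enpp2, Wif1 and Rspo3, at 1017 CPM (776 UMIs). That cluster had no uninjured cell. Perineurial-like cells, grouped together from both libraries, ran against the mesenchymal direction, with 73.2 CPM (53 UMIs) in 38 injured and 3.46 CPM (3 UMIs) in 79 uninjured cells. Only 8 of the 38 and 2 of the 79 cells had a Wif1 UMI. Among the 38, the 10% of cells with most Wif1 held 83.0% of its UMIs. In the grouping of all cells, 15 of the 38 shared a cluster with 40 cells of cluster 17. Wif1 is among the leading genes of clusters 16 and 17, although it was left out of the genes used for clustering.

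The 43 cells of cluster 17 stood out for other members too. They had 747 CPM of Dkk2 (570 UMIs), 431 CPM of Wnt5a (329 UMIs), 35.4 CPM of Frzb (27 UMIs) and 19.7 CPM of Axin2 (15 UMIs), each the highest among mesenchymal clusters of 20 or more cells. Sfrp1 and Sfrp2 were at 93.1 and 73.4 CPM there, low for the injured library. Rspo3, which amplifies Wnt signals, was at 931 CPM, and Lef1, a TCF/LEF factor, at 385 CPM. No marker list named the cluster when mesenchymal cells were grouped alone. In the grouping of all cells, 40 of these 43 cells fell in a cluster of 55 injured and 22 uninjured cells that the perineurial list named, led by Sfrp5, Igfbp6 and Robo2, although cluster 17 itself had no Sfrp5 UMI. Of the 43 cells, 31 had Xist but no Y-linked UMIs, and 7 the reverse.

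Cells were also split by sex-linked UMIs, since both libraries hold cells of either sex. In mesenchymal cells with Xist but without Y-linked UMIs (1040 injured, 714 uninjured), Wif1 was at 17.1 and 15.01 CPM, and 588 of the 720 injured UMIs came from 31 cells of cluster 17. In cells with Y-linked UMIs but without Xist (885 and 465), it was at 6.67 and 63.5 CPM. Sfrp1, Sfrp2 and Dkk3 were more than 2-fold higher in both kinds of cell, with log2 ratios of 4.10 and 3.55, 4.70 and 3.06, and 1.44 and 1.36. Dkk2 was at 80.2 and 81.4 CPM in Xist cells, but 49.5 and 126 CPM in Y-linked cells. Whether the number of mice of each sex differed between libraries is not known, and its part was not tested.

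**Figure D4:**
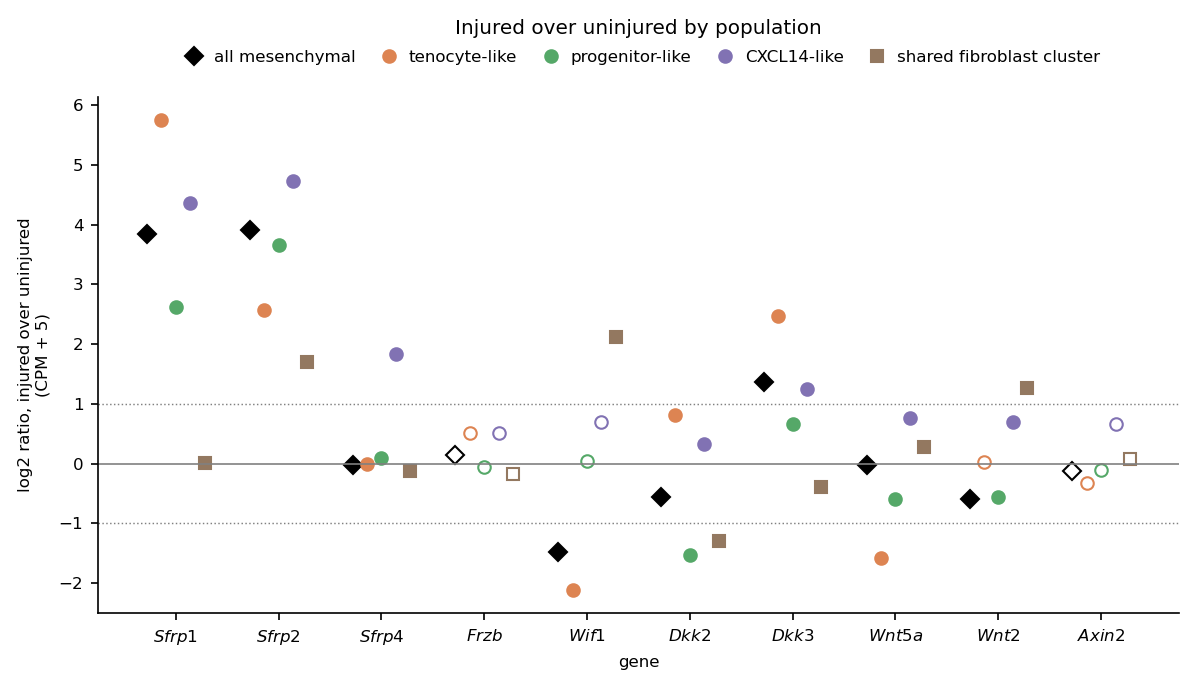
Log2 ratio of CPM plus 5, injured over uninjured, of each member in all mesenchymal cells, in 3 subsets and in the shared fibroblast cluster; open points are under 10 CPM in both libraries, and dotted lines mark 2-fold. Sfrp1 runs between 0.01 in the shared fibroblast cluster and 5.74 in tenocyte-like cells, and Dkk2 lies on both sides of 0.

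Outside the mesenchyme single members stood out in single classes. Of all Sfrp1 UMIs, mesenchymal cells held 97.0% in the injured and 92.1% in the uninjured library, and they held 98.8% and 98.3% of Sfrp2 and 98.4% and 95.9% of Sfrp4. Immune cells of the injured library had 6.44 to 11.3 CPM of Sfrp1 in phagocytes, T or NK cells and neutrophils, values near each other. Schwann cells, the glia of peripheral nerve, had more: 112 CPM of Sfrp1 (202 UMIs) in 92 injured and 54.8 CPM (82 UMIs) in 168 uninjured cells. The 301 injured keratinocytes, a class with no uninjured cell, had 131 CPM of Sfrp1 in 55.1% of cells, and 57.9 CPM of Wnt5a.

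Frzb was mainly a Schwann cell gene in uninjured tissue. Uninjured Schwann cells held 54.7% of that library's Frzb UMIs, and the level was 9.47 CPM (17 UMIs) in injured and 42.8 CPM (64 UMIs) in uninjured Schwann cells, a ratio of 0.221 (0.122 to 0.382). It was found in 6.98% and 12.3% of thinned Schwann cells. It was the 1 member of 3 compared there that was lower, where 9.67% of genes were, and none was higher, where 11.9% of genes were.

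Dkk2 was higher in injured vascular endothelium, the reverse of its direction in progenitor fibroblast-like cells. It was at 22.1 CPM (870 UMIs) in injured and 3.82 CPM (117 UMIs) in uninjured endothelial cells, 5.78-fold higher (4.76 to 7.07), the only member compared, where 4.19% of genes were higher and 4.36% lower. In thinned cells it was found in 3.95% and 0.843%, and in 0.668% and 0.243% of phagocytes. Endothelial clusters differed: the Stmn2 and Sox17 cluster had 144 CPM (265 UMIs) in 74 injured and 22.9 CPM (109 UMIs) in 247 uninjured cells. There Dkk2 was the 1 member compared, where 5.39% of genes were higher and 3.01% lower. The Plvap and Aplnr cluster had 544 UMIs in 610 injured cells (19.8 CPM) and 1 UMI in 75 uninjured cells. It was 1 of 2 members higher there (4.09% of genes were higher and 6.32% lower), the other being Sfrp1 at 10.8 CPM (296 UMIs) and 0.735 CPM (2 UMIs), close to the Sfrp1 level of injured immune cells. The Timp4 and Aqp1 cluster had 1 Dkk2 UMI in each library. It held 111 of the 1114 injured but 1090 of the 1595 uninjured endothelial cells. The part of cluster makeup in the endothelial ratio was not tested. Injured dendritic cells had 58 Dkk2 UMIs (13.5 CPM) and uninjured ones 1 UMI, where 6.77% of genes were higher and 5.22% lower.

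Pericytes and smooth muscle cells carried Dkk3, at 24.2 CPM (247 UMIs) in injured and 51.5 CPM (170 UMIs) in uninjured cells, within 2-fold on the scale used. In the Myh11-led smooth muscle cluster the values were 61.0 and 65.4 CPM. Sfrp4 in this class was lower, at 6.85 CPM (70 UMIs) and 34.8 CPM (115 UMIs), the 1 lower of 3 members compared (6.12% of genes were lower and 7.14% higher), but its uninjured UMIs came from 3.23% of 217 cells. Lymphatic endothelium carried Wnt2, at 3.83 CPM (12 UMIs) in 83 injured and 20.3 CPM (39 UMIs) in 83 uninjured cells, the 1 lower of 2 members compared (10.5% of genes were lower and 10.6% higher).

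Axin2 was the member least held by mesenchymal cells in the injured library, with 55.3% of its UMIs there and 39.7% in the uninjured library. Its level was higher in T or NK cells, at 24.7 CPM (47 UMIs) in 220 injured and 41.9 CPM (18 UMIs) in 46 uninjured cells, a ratio of 0.588 with limits of 0.335 and 1.08. Pericytes and smooth muscle cells had 2.06 CPM (21 UMIs) and 9.39 CPM (31 UMIs), vascular endothelium 0.965 and 2.39 CPM, and injured keratinocytes 15.7 CPM (171 UMIs). Phagocytes had 4 and 3 UMIs. Among injured classes of 50 or more cells the order was thus T or NK cells, keratinocytes, Schwann cells and mesenchymal cells, of which Schwann (4.45 CPM, 8 UMIs) and mesenchymal cells (3.52 CPM) were not distinct by counting.

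Likeness between genes was read as the Pearson r of log2(CPM + 5) over 25 pools of cells, among 8275 genes at 50 CPM or more in some pool. The pools were the named classes and named mesenchymal subsets of each library with 50 or more cells. Unnamed cells were left out. Among them were 677 injured mesenchymal cells, which held 61.0% of the injured library's Wif1 and 44.7% of its Sfrp2 UMIs. Pools share libraries and depth, and r is a description. Sfrp1 was most like Slc1a3 (0.90), a glutamate transporter, Azin2 (0.88) and Ephb2 (0.87). Sfrp2 was most like its opposite-strand neighbour Gm26771 (0.97), then P4ha3 (0.94), a collagen prolyl hydroxylase subunit, and Arsi (0.92). Sfrp4 was nearest to Cpz (0.93), Fgf18 (0.91) and Adgrd1 (0.90), and Wif1 to the collagen genes Col11a2 (0.94) and Col22a1 (0.93) and to Ptx4 (0.93). Dkk3 was nearest to Lrig3 (0.92), Pdzrn3 (0.91) and Cdh11 (0.90), and Dkk2 to AW551984 (0.85), Itga11 (0.84) and Prr16 (0.84). Wnt5a was most like Tmem45a (0.93), Fbln1 (0.93) and its own receptor gene Ror2 (0.92). Wnt2 was nearest to Lrrn4cl (0.88), Gm15675 (0.84) and Cd55 (0.83), Frzb to Gm1992 (0.96), Vat1l (0.94) and Lrrtm4 (0.94), and Axin2 to Ikzf2 (0.76), Gm20275 (0.74) and Znrf3 (0.74), itself a Wnt feedback gene.

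Another 76 genes of the Wnt pathway were listed by role, of which 43 reached 10 CPM in mesenchymal cells. Among these, 7 were more than 2-fold higher, 5 more than 2-fold lower and 31 within 2-fold, against the 4.24% and 6.78% of all genes given above, and their median log2 ratio was -0.20. Ligands and their amplifiers gave 3 higher and 2 lower of 6 compared: the non-canonical ligand Wnt5b was at 29.1 CPM in injured and 5.36 CPM in uninjured cells, and the R-spondins Rspo2 and Rspo3 at 25.8 and 3.88 CPM and at 28.1 and 5.96 CPM. Wnt6 was at 1.06 and 12.0 CPM and Wnt11 at 5.17 and 26.0 CPM. Rspo2 was highest in the injured tenocyte-like cluster 9, at 83.1 CPM.

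Of 15 receptor genes compared, 3 were higher and 1 lower. Lgr5, an R-spondin receptor, was at 39.3 CPM (4371 UMIs) in injured and 2.22 CPM (63 UMIs) in uninjured mesenchymal cells, 17.7-fold higher (13.8 to 23.1). Its mesenchymal levels were highest in clusters 1 and 15, at 85.3 and 81.4 CPM, the clusters with the highest Sfrp2. Ptk7, a planar polarity receptor, was at 46.2 and 10.8 CPM and Fzd6 at 18.2 and 4.62 CPM. Lrp5 was lower, at 11.7 and 32.5 CPM, while its paralogue Lrp6 had a log2 ratio of -0.16. The Wnt5a receptor genes stayed within 2-fold, with log2 ratios of -0.58 for Ror1 (144 and 218 CPM), 0.54 for Ror2 and 0.52 for Ryk.

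Among the 4 inhibitors compared, Sfrp5 was lower, at 4.12 CPM (459 UMIs) in injured and 55.9 CPM (1585 UMIs) in uninjured mesenchymal cells, a direction opposite to Sfrp1 and Sfrp2. Nearly all of it came from perineurial-like cells, at 610 CPM (442 UMIs) in 38 injured and 1804 CPM (1566 UMIs) in 79 uninjured cells. Porcn, which adds the lipid that Wnt proteins need for secretion, was at 22.1 and 7.51 CPM. Of 16 intracellular and target genes compared none was higher, and 1 was lower: Nkd2, an antagonist of Dishevelled, at 6.15 and 29.3 CPM, its uninjured level being 93.9 CPM in tenocyte-like cluster 3. Ctnnb1, which encodes beta-catenin, had a log2 ratio of -0.22 and the target Ccnd1 one of -0.99. Lef1 was under 10 CPM, with 329 injured and 2 uninjured UMIs, and 294 of the injured ones came from the 43 cells of cluster 17.

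**Figure D5:**
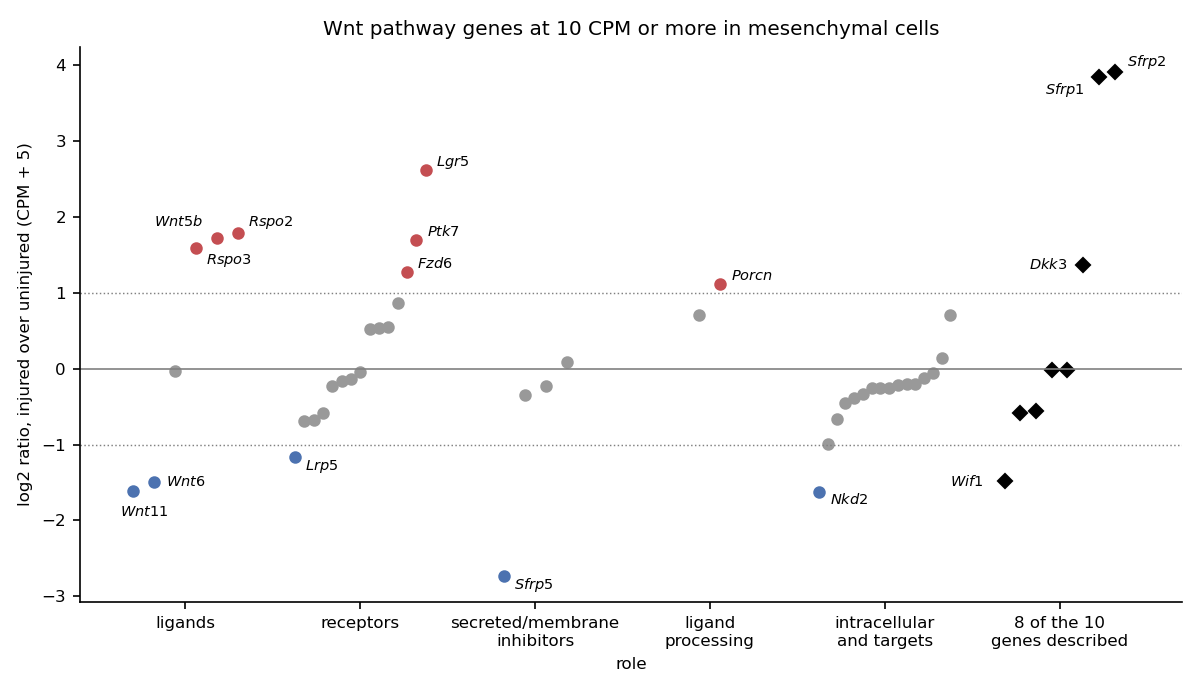
Log2 ratio of CPM plus 5, injured over uninjured, in mesenchymal cells for 43 other Wnt pathway genes by role and, at the right, for 8 of the 10 members (diamonds); red is more than 2-fold higher, blue more than 2-fold lower, and dotted lines mark 2-fold. Sfrp1 and Sfrp2 (3.84 and 3.91) lie above every other gene shown, and Sfrp5 (-2.74) lies lowest.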

How the data were processed

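The authors deposited raw UMI counts per gene and cell barcode for each library, per the file headers, with whole-number values. Reads were processed with Cell Ranger 5.0.1 on mm10, per the submitters' processing notes. The sources used here do not give the annotation release or how strand and intronic reads were counted. The other deposited files are lists of gene and barcode names.

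A cell was kept if it had at least 500 detected genes and a mitochondrial share of no more than 10% (7.49% of injured and 26.4% of uninjured barcodes exceeded 10%). Scanpy 1.11.5 was used. Its doublet caller set automatic limits that marked 1 and 3 cells, too few to trust, so cells with a doublet score above 0.2 were removed, 215 injured and 60 uninjured. Both libraries were clustered together (2000 variable genes, 30 components, Leiden resolution 0.8, fixed seed), without batch correction. Clusters were named where a marker list led, and mesenchymal clusters were split again at resolution 1. Unnamed cells outside the mesenchyme were 277 injured (3.03%) and 414 uninjured (8.81%).

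Levels are summed UMIs per 1000000 of the class (CPM), computed from the deposited counts. Ratios carry exact conditional intervals, levels exact Poisson and shares Clopper-Pearson intervals. Genes reaching 10 CPM in either library, and classes with 50 or more cells in both, were compared, and a ratio past 2-fold on CPM plus 5 was counted. No ratio is given against a count of 0, for which 3 UMIs is the limit. Total UMIs were 253050820 (injured) and 101685524 (uninjured). The counting step was checked on simulated counts. All 10 members, the Wnt genes past 2-fold and the 3 genes most like each member are named. Members, gene lists and markers were chosen with earlier results of these data known. Gene positions are from GENCODE M21 on GRCm38, the assembly of mm10. Upstream sequences matched for 6 of the 10 members. Sfrp1, Sfrp4, Dkk3 and Wnt5a have none here.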

Additional observations from a re-analysis of the deposited data

Results flagged for a closer look

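The Wif1 difference in mesenchymal cells had opposite signs in cells split by sex-linked UMIs. The log2 ratio, injured over uninjured, was 0.15 in cells with Xist but without Y-linked UMIs, and -2.55 in cells with Y-linked UMIs but without Xist. The difference between the 2 kinds of cell was not tested, as each library is 1 sample. The Wif1-rich cluster 16 held 29 uninjured cells with Y-linked and 13 with Xist UMIs (742 and 616 CPM of Wif1), and Wif1-rich cluster 17 held 7 injured cells with Y-linked and 31 with Xist UMIs. Those 31 cells gave 588 of the 720 Wif1 UMIs of injured Xist cells (1116 CPM). Within tenocyte-like cells Wif1 was lower in the injured library in both kinds, at 24.8 against 162 CPM with Y-linked and 21.6 against 60.4 CPM with Xist UMIs.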

How the results depend on the processing

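Over 34 other settings, the log2 ratio in mesenchymal cells ran between 3.45 and 4.69 for Sfrp1, 3.06 and 4.82 for Sfrp2, and 1.11 and 1.70 for Dkk3, past 2-fold in each. The count of members more than 2-fold higher was 3 in each of these settings except 4 without mesenchymal cluster 0, where Dkk2 reached 1.10. The count more than 2-fold lower, 1 (Wif1), was 0 with a pseudocount of 20 CPM, 0 with the mean of each cell's CPM, 0 in cells with Xist but without Y-linked UMIs, 2 in cells with Y-linked UMIs but without Xist (Dkk2 then -1.27), and 0 without mesenchymal cluster 16. Wif1 turned to 0.15 in Xist cells and to 0.30 without cluster 16. Sub-cluster resolution and leaving out mesenchymal clusters were chosen after seeing the data. Scaling by median of ratios moved all genes by -0.12. By subset, Sfrp2 in tenocyte-like cells ran between 0.82 and 4.42, Sfrp4 there between -2.51 and 2.60, and Dkk2 in CXCL14 fibroblast-like cells between -3.26 and 0.47. Past 2-fold were Dkk2 in progenitor fibroblast-like cells in 11 of 14 settings (-2.69 to -0.72) and Dkk3 in CXCL14 fibroblast-like cells in 11 of 13 (0.81 to 1.61). The cause was not tested. No paired analysis was possible because each group is 1 library. Axin2, Frzb and Wnt2 are limited by few UMIs.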
